A study of Mus musculus with 6 samples.

Results

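The genes described here are 6 regulators and markers of the postimplantation epiblast, Fgf5, Pou3f1, Otx2, Sall2, Foxd3 and Tead2. They were taken as the probe sets whose platform annotation gives exactly 1 gene symbol and that symbol is one of the 6. This gave 8 of the 45037 non-control probe sets and 6 of the 18193 genes measured. Fgf5 and Pou3f1 had 2 probe sets each, and the other 4 genes had 1 each.

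RNA was measured on 6 Affymetrix expression arrays, 2 per group, from OLV2-1 cells, mouse embryonic stem cells in which the Oct4 (Pou5f1) locus carries a knocked-in Venus fluorescent protein. All 3 groups carried that reporter and were sorted as Venus-positive. ESC were undifferentiated stem cells, which the sorting protocol adds were positive for CD31, the protein of Pecam1. EpiSC-like cells came from aggregates at day 3 of SFEBq, a serum-free culture of quickly reaggregated cells that leads to neural tissue, and were negative for Pecam1. The third group, Day7_Oct4-Venus+ in the labels and day 7 below, was the Venus-positive fraction of day 7 aggregates, with no Pecam1 gate named. All cells were of 1 line, and the fractions are defined by a reporter of Pou5f1 and not by lineage. Trypsin, a recovery period in medium and antibody staining were used for ESC and for day 3, and EDTA alone was used to take apart the day 7 aggregates, so this handling and the day 7 stage cannot be told apart. Whether replicate arrays stem from separate cultures is not stated, and the p-values then reflect the spread among these 6 samples, which may be technical.

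The epiblast is the layer of the early embryo that forms the body. Before implantation its cells are in the naive state that mouse ESC resemble, and after implantation they pass through a formative to a primed state, in which they still express Pou5f1 but can answer signals for the germ layers. Loss of naive factors and gain of Fgf5, Pou3f1 and Otx2 are commonly used to recognise that passage in mouse cells. The design sets Oct4-Venus-positive cells at 2 stages of neural culture against the stem cells they came from, and so shows where these markers stand in each fraction.

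Signals are linear intensities as deposited, and differences are on the log2(signal + 16) scale of a limma fit over all 18193 genes, so the change of dim genes is understated. A gene is called higher or lower where its Benjamini-Hochberg adjusted p over all genes was under 0.05. Because each sample is a sorted bulk fraction, fewer cells expressing a gene and less RNA per cell cannot be told apart. The 3 comparisons share groups and are not independent of each other. The median signal of the arrays lay between 63.9 and 76.2, and replicates correlated across genes with r between 0.976 and 0.978. The arrays fell into 2 technical sets that follow the replicate numbers, with hybridization controls at 3172 to 4159 on the replicate 1 arrays and at 6668 to 8064 on the replicate 2 arrays, so the difference within each replicate number is given for the called genes. The poly-A labelling controls were low on 2 arrays, at 45.1 for ESC replicate 2 and 49.97 for EpiSC-like replicate 2, where the other 4 arrays had 314 to 486. The 3' minus 5' log2 difference of the actin control was 0.71 and 0.94 at day 7. It was 0.46 to 0.58 on the ESC and EpiSC-like arrays. For the Gapdh control it was -0.12 and -0.18 at day 7, and -0.36 to 0.005 on those arrays. The part of this in the day 7 comparisons was not tested. Centring each array on its median instead of keeping the deposited scale moved the median difference of all genes to -0.13 for EpiSC-like against ESC and to -0.20 for day 7 against ESC, from 0.03 and 0.02.

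Pou5f1 is the gene whose locus carries the reporter. Its signals were 7927 and 14055 in ESC, 6244 and 9923 in EpiSC-like cells and 6533 and 9062 at day 7. The groups overlapped, and its log2 differences of -0.42 for EpiSC-like against ESC and -0.46 for day 7 against ESC were not called (limma, adjusted p = 0.680 and 0.587). Pecam1, the gene of the sorting antigen, had signals of 728 and 343 in ESC, 401 and 177 in EpiSC-like cells and 767 and 488 at day 7. Its log2 difference of -0.87 for EpiSC-like against ESC was not called (limma, adjusted p = 0.480). It was -0.84 within replicate 1 and -0.90 within replicate 2. Day 7 against EpiSC-like cells gave 1.15, with 0.91 and 1.39 within the replicates, and day 7 against ESC gave 0.28. Neither was called (adjusted p = 0.381 and 0.814).

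Fgf5, Pou3f1 and Sall2 were higher in EpiSC-like cells than in ESC, and Fgf5 was also higher at day 7 than in ESC. Otx2, Foxd3 and Tead2 passed the test in no comparison. In all, 3 of the 6 genes were called higher and 0 lower in EpiSC-like cells against ESC, where 1.31% of all genes were called higher and 0.583% lower. Day 7 cells had 1 of the 6 called higher and 0 lower against ESC, where 0.753% of all genes were called higher and 0.286% lower. Over all genes 345 were called in the first comparison, 239 higher and 106 lower, and 189 in the second, 137 higher and 52 lower. With each array centred on its median the splits were 184 to 148 and 92 to 82. Leaving out any 1 of the 6 arrays left 0 to 63 and 0 to 10 calls.

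**Figure D1:**
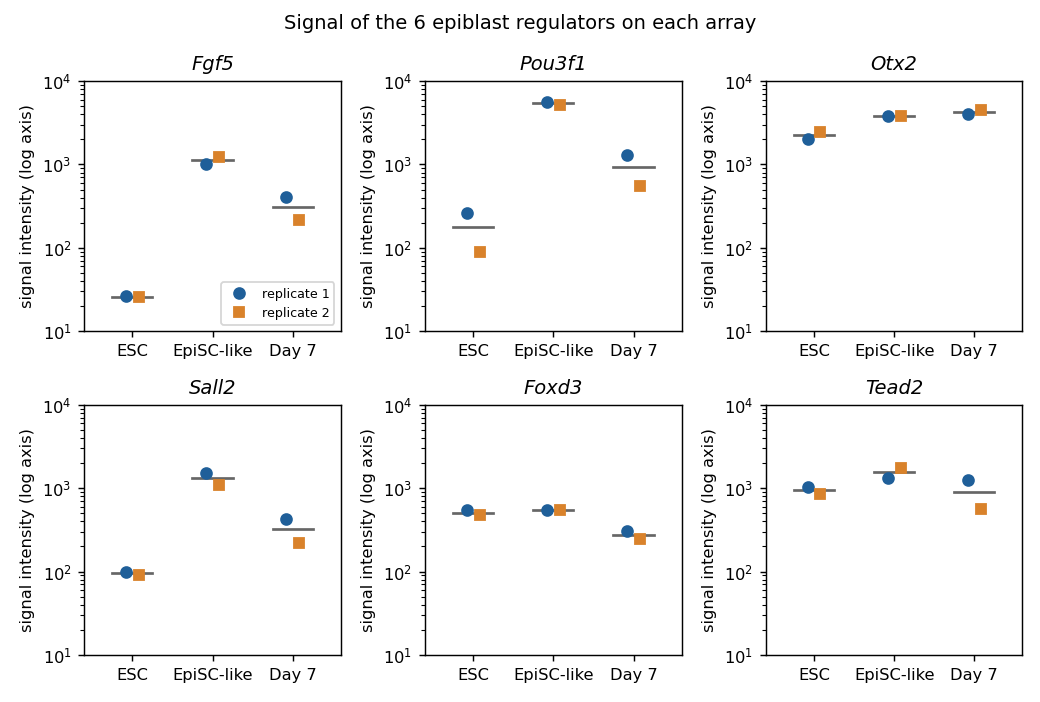
Signal intensity (log axis) of the 6 epiblast regulators on each array, by group in the order of the culture; circles are replicate 1, squares replicate 2 and bars the mean of 2 arrays. Fgf5, Pou3f1 and Sall2 have their highest signals in EpiSC-like cells, with day 7 between EpiSC-like cells and ESC, while Otx2 stays within a narrow range.

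Fgf5 encodes a secreted fibroblast growth factor that is a standard marker of the mouse epiblast after implantation and later limits hair growth. The 250 bases before its RefSeq start (GRCm38.p6, chr5:98253934-98254183, plus strand) are shown, with each CpG in capitals, because Fgf5 is the gene of the 6 that was called at both stages and its window is rich in CpG:

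Fgf5: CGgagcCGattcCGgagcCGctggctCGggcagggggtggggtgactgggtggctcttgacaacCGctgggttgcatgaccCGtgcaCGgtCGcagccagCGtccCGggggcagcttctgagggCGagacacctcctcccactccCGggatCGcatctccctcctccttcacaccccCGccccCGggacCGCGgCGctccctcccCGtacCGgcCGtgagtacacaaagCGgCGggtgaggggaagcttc

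This window was 70.8% G or C and held 24 CpG, more than 88.0% of the 32851 promoter windows of the same length, whose median was 6. Fgf5 signals were 26.2 and 25.9 in ESC, 1009 and 1243 in EpiSC-like cells and 409 and 215 at day 7. The ESC signals lay below the median of their arrays, and the 3 groups did not overlap. Mean signals were 1126 ± 166 in EpiSC-like cells and 26.0 ± 0.159 in ESC (SD, n = 2 each), a log2 difference of 4.76 ± 0.33 (SE, 95% interval 3.96 to 5.56), or 27.0-fold (limma, adjusted p = 0.0140). The difference was 4.60 within replicate 1 and 4.91 within replicate 2. The day 7 mean was 312 ± 137 (SD, n = 2), a log2 difference from ESC of 2.90 ± 0.33 (SE), or 7.45-fold (limma, adjusted p = 0.0291), with 3.33 within replicate 1 and 2.46 within replicate 2. Day 7 cells were at a log2 difference of -1.86 ± 0.33 (SE) from EpiSC-like cells, which was not called (adjusted p = 0.0987).

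The other Fgf5 probe set was dim and gave a less regular picture. Its signals were 2.11 and 34.4 in ESC, 105 and 162 in EpiSC-like cells and 69.6 and 7.66 at day 7. Both EpiSC-like signals were above all others, and the ESC and day 7 signals overlapped. In a fit over all 45037 probe sets, where 0.286% were called in EpiSC-like cells against ESC, its log2 difference was 2.28 ± 0.71 (SE) in that comparison and was not called (adjusted p = 0.273). At day 7 against ESC it was 0.57 ± 0.71 (adjusted p = 0.759), with 2.24 within replicate 1 and -1.09 within replicate 2, so the Fgf5 call at day 7 rests on the brighter probe set alone.

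Pou3f1, also known as Oct6, encodes a POU domain transcription factor of the epiblast and of early neural tissue, and later of Schwann cells. Its signals were 263 and 89.7 in ESC, 5624 and 5212 in EpiSC-like cells and 1289 and 556 at day 7. The 3 groups did not overlap, and replicate 1 read higher than replicate 2 in each. The means were 5418 ± 291 in EpiSC-like cells and 176 ± 123 in ESC (SD, n = 2 each), a log2 difference of 4.98 ± 0.55 (SE, 95% interval 3.66 to 6.31), or 31.6-fold (limma, adjusted p = 0.0200). It was 4.34 within replicate 1 and 5.63 within replicate 2. At day 7 the mean was 922 ± 518 (SD, n = 2). The log2 difference from ESC was 2.33 ± 0.55 (SE, 95% interval 1.00 to 3.66) and was not called (adjusted p = 0.107). Against EpiSC-like cells it was -2.65 ± 0.55 (95% interval -3.98 to -1.33), also not called (adjusted p = 0.121).

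The other Pou3f1 probe set ran the same way between EpiSC-like cells and ESC. Its signals were 22.9 and 19.3 in ESC, 521 and 2272 in EpiSC-like cells and 97.7 and 97.8 at day 7. The groups did not overlap, although the EpiSC-like arrays differed from each other by more than the 2 arrays of either other group. Over all probe sets its log2 difference for EpiSC-like against ESC was 4.90 ± 0.62 (SE) and was called (limma, adjusted p = 0.0487), as was that of the brighter probe set in the same fit (adjusted p = 0.0432). At day 7 against ESC it was 1.62 ± 0.62 and was not called (adjusted p = 0.296).

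**Figure D2:**
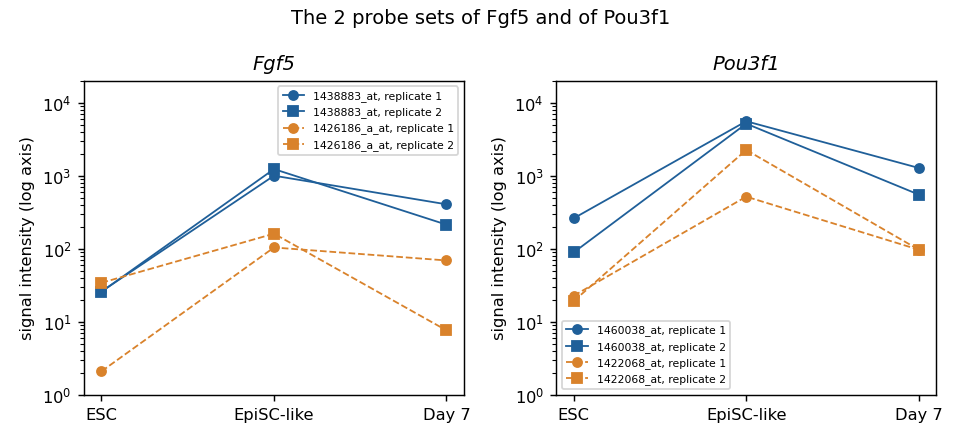
Signal intensity (log axis) of both probe sets of Fgf5 and of Pou3f1 along the culture, with solid lines for the probe set used in the tests, dashed lines for the other one, circles for replicate 1 and squares for replicate 2. All 8 lines peak in EpiSC-like cells, and the dim Fgf5 probe set spreads widely between replicates at ESC and at day 7.

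Sall2 encodes a zinc finger transcription factor of the spalt family, relatives of the ESC factor Sall4. RefSeq gives it 2 start sites on the minus strand of chromosome 14, and the 250 bases before each are shown because they differ in base content:

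Sall2, upstream start, chr14:52328671-52328920: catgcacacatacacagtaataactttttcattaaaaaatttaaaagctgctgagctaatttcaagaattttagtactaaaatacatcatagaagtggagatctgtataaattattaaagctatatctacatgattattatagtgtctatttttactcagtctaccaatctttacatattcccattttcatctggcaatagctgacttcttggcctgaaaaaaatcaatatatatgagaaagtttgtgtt

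Sall2, downstream start, chr14:52316324-52316573, CpG in capitals: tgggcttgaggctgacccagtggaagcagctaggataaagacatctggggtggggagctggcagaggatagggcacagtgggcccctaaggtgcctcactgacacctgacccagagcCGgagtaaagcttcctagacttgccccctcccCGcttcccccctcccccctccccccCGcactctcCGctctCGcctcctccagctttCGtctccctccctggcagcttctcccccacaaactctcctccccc

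The upstream window was 28.0% G or C and held 0 CpG, and the downstream one was 64.4% G or C with 6 CpG, the median of all windows. The array does not tell transcripts from these starts apart here. Sall2 signals were 100.0 and 91.1 in ESC, 1534 and 1095 in EpiSC-like cells and 424 and 222 at day 7. The 3 groups did not overlap. The means were 1314 ± 310 in EpiSC-like cells and 95.5 ± 6.30 in ESC (SD, n = 2 each), a log2 difference of 3.56 ± 0.35 (SE, 95% interval 2.71 to 4.41), or 11.8-fold (limma, adjusted p = 0.0164). It was 3.74 within replicate 1 and 3.38 within replicate 2. The day 7 mean of 323 ± 143 (SD, n = 2) gave log2 differences of 1.54 ± 0.35 (SE) from ESC and -2.02 ± 0.35 from EpiSC-like cells, neither of them called (adjusted p = 0.101 and 0.0940).

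Otx2 encodes a homeodomain factor that acts with Oct4 in the formative epiblast and later patterns the head. It is also a gene of the visceral endoderm and of the anterior neuroectoderm. Of 9 RefSeq promoter windows of 5 of the genes, 1 Otx2 window on the minus strand held the only exact match among 5 motifs searched on both strands, and is shown with that match in capitals:

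Otx2, chr14:48665110-48665359: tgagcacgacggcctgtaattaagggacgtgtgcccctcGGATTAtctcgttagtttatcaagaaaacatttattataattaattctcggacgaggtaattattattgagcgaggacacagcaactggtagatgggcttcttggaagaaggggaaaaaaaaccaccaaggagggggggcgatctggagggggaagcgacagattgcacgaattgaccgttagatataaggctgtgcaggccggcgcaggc

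The match is to the Otx motif TAATCC, read on the other strand, at bases 40 to 45 of the window. Of all 32851 windows, 6.25% held that motif. The other motifs were the octamer ATGCAAAT, held by 1.60% of all windows, the Tead motif GGAATG by 12.6%, the Tcf/Lef motif CTTTGAT by 3.21% and the Fox motif TGTTTAC by 3.17%, and these letters are in none of the 9 windows. No motif holds another one.

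Otx2 varied over a narrower range than Fgf5 across the 6 arrays, 1.16 against 4.91 log2 units. Its signals were 2002 and 2466 in ESC, 3848 and 3827 in EpiSC-like cells and 3972 and 4509 at day 7. Both later stages lay above both ESC arrays, and both day 7 arrays lay above both EpiSC-like arrays. The log2 difference of EpiSC-like cells from ESC was 0.78 ± 0.23 (SE, 95% interval 0.22 to 1.35), or 1.72-fold, and was not called (limma, adjusted p = 0.169). At day 7 it was 0.92 ± 0.23 from ESC (95% interval 0.36 to 1.49, adjusted p = 0.117) and 0.14 ± 0.23 from EpiSC-like cells (95% interval -0.42 to 0.70, adjusted p = 0.845). The intervals of the first 2 lie above 0 before adjustment over all genes.

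Foxd3 encodes a forkhead factor that mouse embryos need to keep the epiblast, and that later marks the neural crest. Its RefSeq window was 65.6% G or C with 21 CpG. Its signals were 541 and 471 in ESC, 547 and 540 in EpiSC-like cells and 305 and 247 at day 7. Both day 7 arrays lay below the other 4, and the EpiSC-like and ESC arrays overlapped. The log2 difference of EpiSC-like cells from ESC was 0.10 ± 0.23 (SE, 95% interval -0.46 to 0.66, limma, adjusted p = 0.893), and -0.049 with each array centred on its median, so it has no direction here. At day 7 the mean was 276 ± 40.7 against 506 ± 49.1 in ESC (SD, n = 2 each), a log2 difference of -0.84 ± 0.23 (95% interval -1.40 to -0.28), which was not called (adjusted p = 0.140). Day 7 against EpiSC-like cells gave -0.94 ± 0.23, not called either (adjusted p = 0.166).

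Tead2 encodes a TEAD factor, which binds DNA as the partner of the Hippo pathway coactivators Yap1 and Taz, and is expressed in the early mouse embryo and its neural tube. Its RefSeq window was 57.2% G or C with 7 CpG. Its signals were 1046 and 857 in ESC, 1321 and 1762 in EpiSC-like cells and 1266 and 555 at day 7. The EpiSC-like arrays lay above all others, and the day 7 arrays stood on both sides of the ESC arrays. The log2 difference was 0.68 ± 0.41 (SE, 95% interval -0.31 to 1.67) for EpiSC-like cells against ESC and was not called (limma, adjusted p = 0.500). For day 7 against ESC it was -0.17 ± 0.41 (95% interval -1.16 to 0.82, adjusted p = 0.869), with 0.27 within replicate 1 and -0.61 within replicate 2. Without day 7 replicate 2 it was 0.41, so its sign rests on that array.

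**Figure D3:**
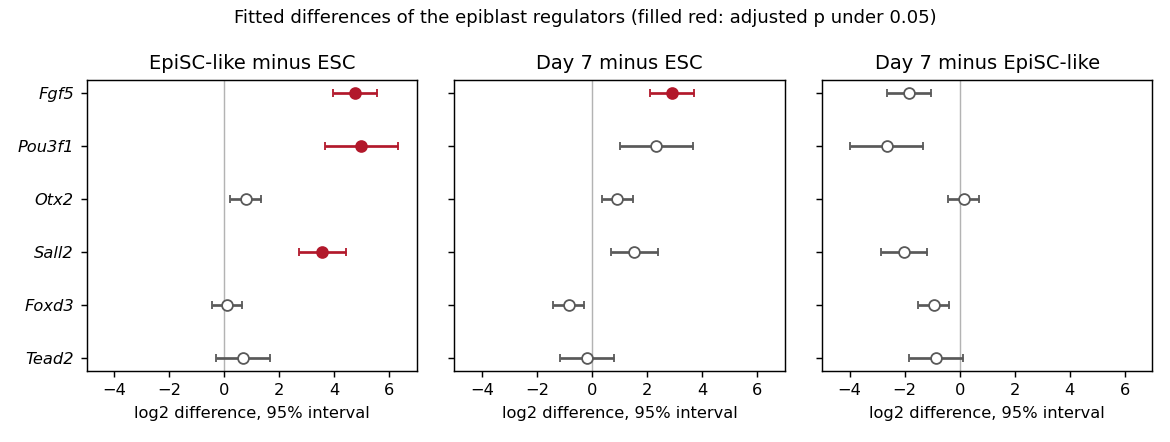
Log2 differences of the 6 genes in the 3 comparisons, with 95% intervals of the limma fit; filled red points passed an adjusted p of 0.05 over all genes. In EpiSC-like cells against ESC the 3 called genes lie between 3.56 and 4.98, apart from Otx2, Foxd3 and Tead2 at 0.78 and below (Foxd3 has no settled sign, since it turns with the scaling).

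For EpiSC-like cells against ESC the median log2 difference of the 6 genes was 2.17, beside 0.03 for all genes, and 4 of the 6 had an unadjusted p under 0.05, as did 2904 of the 18193 genes. The arrays of the groups did not overlap for 5 of the 6, all 5 higher in EpiSC-like cells, where 44.9% of all genes had no overlap in either direction. Each of the 3 calls was lost without ESC replicate 2 (adjusted p = 0.114 to 0.117), without EpiSC-like replicate 1 (0.0631 to 0.0965) or without EpiSC-like replicate 2 (0.125 to 0.136), Sall2 was also lost without ESC replicate 1 (0.0530), and with a pseudocount of 1 none passed (0.0721 to 0.0863), nor with the replicate number, which the technical sets follow, as a block (0.0506 for each), while with the poly-A control level as a block all 3 passed (0.0494). Under either block the 3 log2 differences were those of the main fit. The adjusted p that the 3 genes share there is the smallest of all genes, just above or just below 0.05. Over the 19 alternatives the log2 difference ran from 4.28 to 5.68 for Pou3f1 and from 3.09 to 3.80 for Sall2. For Fgf5 it ran from 3.52, with the mean of its 2 probe sets, to 5.37, with a pseudocount of 1.

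For day 7 against ESC the median of the 6 was 1.23, beside 0.02 for all genes. Among genes not called in the main fit, Otx2 passed in 3 of the 19 alternatives, Pou3f1 and Sall2 in 2 each, Foxd3 in 1 and Tead2 in 0. For Otx2, Pou3f1, Sall2 and Foxd3 these passes include the filter at the median signal. Pou3f1 and Sall2 cleared that filter through the groups brighter than ESC, so it is not separate support. Fgf5, Pou3f1, Otx2 and Sall2 lay above ESC without overlap and Foxd3 lay below, where 50.1% of all genes had no overlap in either direction, and 5 of the 6 had an unadjusted p under 0.05, beside 18.3% of all genes. The Fgf5 call was lost on leaving out any 1 of the 6 arrays (adjusted p = 0.0761 to 0.187) and in 12 of the 19 alternatives in all, among them the replicate block (0.0665) and the poly-A control level as a block (0.100), and with the mean of its 2 probe sets the log2 difference was 1.74 (adjusted p = 0.144).

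For day 7 against EpiSC-like cells none of the 6 was called by limma, beside 0.0385% of all genes, and 4 of the 6 had an unadjusted p under 0.05, beside 14.1% of all genes. The median of the 6 was -1.40, beside -0.02 for all genes. All 6 were without overlap, 5 of them lower and Otx2 higher at day 7, where 45.8% of all genes had no overlap. Fgf5, Pou3f1 and Sall2, the genes called at day 3, had fitted values at day 7 that lay 3.62-fold, 6.29-fold and 4.06-fold below those of EpiSC-like cells. Their log2 differences stayed below 0 in the 19 alternatives and passed the test in 3, 2 and 3 of them. For each of these genes the passes include the filter at the median signal. They cleared that filter through the groups brighter than ESC, so it is not separate support.

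Other genes of the postimplantation epiblast were read from a list with 27 measured genes. In EpiSC-like cells against ESC, 6 of the 27 were called higher and 0 lower, with a median of 1.22. The called genes, with log2 differences ± SE, were the Wnt ligand Wnt8a (3.68 ± 0.44), the Wnt effector Lef1 (3.82 ± 0.57), the secreted Wnt modulator Sfrp2 (2.47 ± 0.29), the kinase Pim2 (3.43 ± 0.50) and the neural and epiblast factors Sox3 (2.69 ± 0.29) and Sox11 (2.56 ± 0.43), with adjusted p from 0.0200 to 0.0454. Sox3 and Sox11 are also genes of the neural plate. The signals of Wnt8a were 575 and 1392 in EpiSC-like cells, against 57.3 and 52.9 in ESC. Among those not called, the de novo DNA methyltransferase genes Dnmt3a and Dnmt3b had log2 differences of 2.40 ± 0.59 and 1.22 ± 0.32 (adjusted p = 0.111 and 0.128), and their cofactor Dnmt3l, also a gene of ESC, had -1.35 ± 0.26 (adjusted p = 0.0632). Fgf8, a ligand of the gastrulating embryo, had 3.61 ± 0.76 (adjusted p = 0.0755). It was dim in ESC, at 25.6 and 5.82, against 160 and 751 in EpiSC-like cells. The Fgf8 difference was 2.08 within replicate 1 and 5.14 within replicate 2.

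Of the same 27 genes, 1 was called higher and 0 lower at day 7 against ESC, with a median of 0.81. This was Sfrp2, with signals of 1370 and 911 at day 7 against 251 and 206 in ESC, and a log2 difference of 2.22 ± 0.29 (SE, limma, adjusted p = 0.0375). Lef1 had 3.09 ± 0.57 and was not called (adjusted p = 0.0665). At day 7 against EpiSC-like cells 0 of the 27 were called by limma and 7 had an unadjusted p under 0.05, 21 lay below 0 and the median was -0.59. Wnt8a had the lowest value, -2.78 ± 0.44 (adjusted p = 0.0863).

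**Figure D4:**
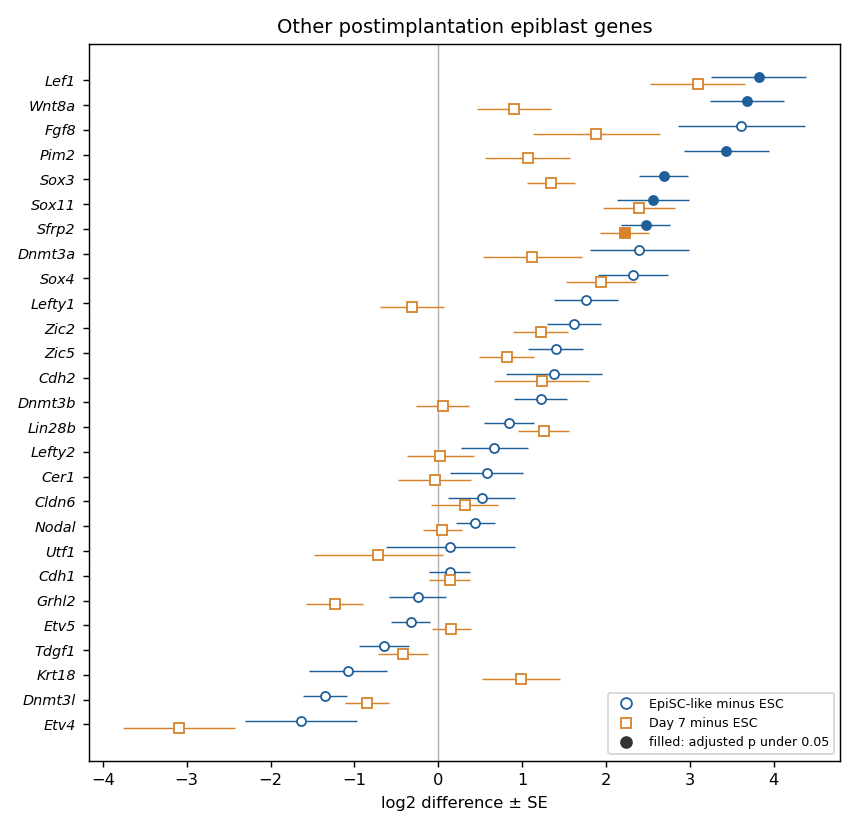
Log2 differences ± SE from ESC of the 27 other postimplantation epiblast genes, for EpiSC-like cells (circles) and day 7 (squares); filled symbols passed an adjusted p of 0.05. The 6 called genes of EpiSC-like cells lie between 2.47 and 3.82, Sfrp2 is the only gene called at day 7, and Etv4 is lowest in both at -1.64 and -3.09, neither called.

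Naive pluripotency factors, the counterpart of these genes, were read from a list of 16. Of 15 measured, 6 were called lower in EpiSC-like cells than in ESC and 0 higher, with all 15 below 0 and a median of -1.66. They were the LIF feedback inhibitor Socs3 (-4.08 ± 0.35), Klf4 (-3.34 ± 0.55), Tfcp2l1 (-2.98), the kinase coactivator Tcl1 (-2.65), Klf5 (-2.63 ± 0.37) and the nuclear receptor Esrrb (-2.08). Only Klf5 was called lower at day 7 than in ESC, at -2.36 ± 0.37 (limma, adjusted p = 0.0495), where the median of the 15 was -0.81. Between day 7 and EpiSC-like cells 0 of 15 were called by limma and 11 had an unadjusted p under 0.05, and 14 lay above 0 with a median of 0.96. Socs3 was at 1024 and 1840 at day 7 and at 188 and 276 in EpiSC-like cells, a log2 difference of 2.51 ± 0.35 for day 7 against EpiSC-like cells that was not called (adjusted p = 0.0804). Tdh was not analysed. Of 8 genes shared by naive and primed cells 0 were called by limma in any comparison and 0, 1 and 1 had an unadjusted p under 0.05, with medians of -0.24, -0.58 and -0.34 for EpiSC-like against ESC, day 7 against ESC and day 7 against EpiSC-like.

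Paralogs of the 6 genes were measured on the same arrays. Among 6 relatives of Fgf5, 1 was called, Fgf15, which was higher in EpiSC-like cells at 525 and 1131 than in ESC at 123 and 80.6, with a log2 difference of 2.77 ± 0.45 (SE, limma, adjusted p = 0.0436). Among 5 measured relatives of Pou3f1, none was called in EpiSC-like cells against ESC, and 2 were called higher at day 7 than in ESC, Pou3f3 and Pou3f4, both POU factors of the brain. Pou3f3 had signals of 201 and 277 at day 7, against 24.5 and 27.2 in ESC, a log2 difference of 2.59 ± 0.25 (adjusted p = 0.0291). Pou3f4 was dim, with 51.3 and 67.2 at day 7 against 7.59 and 8.37 in ESC, a difference of 1.64 ± 0.26 (adjusted p = 0.0495). For day 7 against EpiSC-like cells Pou3f3 had 1.80 and was not called (adjusted p = 0.0804), where Pou3f1 had -2.65. Pou2f1 was not analysed.

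The Otx2 relatives Otx1 and Crx were not called in any comparison. Otx1 was dim, at 12.1 and 14.3 in ESC, 2.84 and 1.92 in EpiSC-like cells and 30.1 and 26.7 at day 7. Among 3 relatives of Sall2, Sall3 was called higher in EpiSC-like cells, at 122 and 159 against 4.55 and 21.3 in ESC (2.49 ± 0.39, limma, adjusted p = 0.0380). Sall1 and Sall4 were not called. Sall4, needed for stem cell self-renewal, stayed between 7454 and 9819 on all 6 arrays. Among 3 relatives of Foxd3, Foxd4 was called higher at day 7, at 133 and 174 against 21.7 and 3.12 in ESC (2.65 ± 0.38, adjusted p = 0.0427), where Foxd3 had -0.84. The Tead2 relatives Tead1, Tead3 and Tead4 were not called in any comparison. Tead1 was at 3590 and 4116 in ESC, 3188 and 2792 in EpiSC-like cells and 4608 and 4796 at day 7. Tead4, known for its role in the trophectoderm, was at 62.6 and 66.9 in ESC, 22.0 and 4.48 in EpiSC-like cells and 60.3 and 48.3 at day 7.

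Fgf5 acts through FGF receptors that signal to ERK kinases, and 11 receptor and response genes were read. In EpiSC-like cells against ESC 0 of 11 were called by limma and 5 had an unadjusted p under 0.05, with a median of -0.14. The feedback inhibitors Spry4 and Spry2 were called lower at day 7 than in ESC, 2 of the 11, and the median was -0.41. Spry4 was at 167 and 207 at day 7 against 3584 and 2055 in ESC, a log2 difference of -3.76 ± 0.40 (SE, adjusted p = 0.0291). Spry2 was at 798 and 839 against 3572 and 3248, a difference of -2.04 ± 0.24 (adjusted p = 0.0299). At day 7 against EpiSC-like cells 0 were called, 5 had an unadjusted p under 0.05 and the median was -0.64. Of 14 Hippo pathway partners and Tead targets 0 were called by limma in any comparison, 1, 4 and 2 had an unadjusted p under 0.05 for EpiSC-like against ESC, day 7 against ESC and day 7 against EpiSC-like, and the medians were 0.28, 0.01 and -0.24. Wwtr1, the gene of Taz, had 1850 and 1891 at day 7 against 1016 and 704 in ESC, a difference of 1.13 ± 0.26 that was not called (adjusted p = 0.101).

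Several of the 6 genes are also expressed in other cell types, whose markers were read on the same arrays. Of 9 neural progenitor markers, a tissue of Pou3f1 and Tead2, 3 were called higher in EpiSC-like cells than in ESC, Sox1 (4.22 ± 0.33), Fabp7 (4.58 ± 0.44) and Prom1 (3.16 ± 0.24), and 3 at day 7, Sox1 (2.90 ± 0.33), Fabp7 (4.99 ± 0.44) and Pax3 (2.36 ± 0.34). Sox1 was at 11.7 and 5.70 in ESC, 347 and 557 in EpiSC-like cells and 205 and 135 at day 7. The summed signal of the 9 markers was 1421 and 1567 in ESC, 5525 and 6512 in EpiSC-like cells and 3553 and 4389 at day 7. Without Prom1, the brightest of them, the other 8 summed to 1044 and 1231 in ESC, 2362 and 3047 in EpiSC-like cells and 2467 and 3510 at day 7. So the sum of the list, like Fgf5, Pou3f1 and Sall2, lay above ESC at both later stages. Gene by gene, 8 of the 9 lay above 0 in EpiSC-like cells against ESC, and 9 at day 7 against ESC. Only with Prom1 did the sum lie lower at day 7 than in EpiSC-like cells. The median log2 difference of the list between those stages was 0.32. Of the 9, 5 and 5 lay below the array median in ESC, 2 and 1 in EpiSC-like cells and 1 and 2 at day 7. Their part in those results was not tested. Of 12 markers of visceral and primitive endoderm, a tissue of Otx2, 0 were called by limma in any comparison, but at day 7 against ESC 8 had an unadjusted p under 0.05 and 11 lay above 0, with a median of 1.84. Their summed signal was 1283 and 1118 in ESC, 1152 and 1020 in EpiSC-like cells and 3002 and 11979 at day 7, and Col4a1 gave 7417 of the last value. Of the 12, 8 lay below the array median on each ESC and EpiSC-like array, and 4 and 1 at day 7. The highest Otx2 signal, 4509, was on that same array, and the part of these cells in it was not tested.

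Of 8 measured anterior neuroectoderm markers, another tissue of Otx2, Lhx2 was called higher at day 7 than in ESC (2.54 ± 0.34, limma, adjusted p = 0.0384). In that comparison 3 of the 8 markers lay above 0 and 5 below, with a median of -0.07. Their summed signal lay between 422 and 641 on all 6 arrays, with 5 to 7 of the 8 below the array median. Of 10 neural crest markers, a tissue of Foxd3, Snai2 was called higher in EpiSC-like cells (1.70 ± 0.29, adjusted p = 0.0481) and Pax3 at day 7. Pax3 and Sox9 are also among the neural progenitor markers, so this Pax3 call is the one given there. The summed signal of the 10 was 524 and 383 in ESC, 922 and 760 in EpiSC-like cells and 1050 and 1309 at day 7, highest where Foxd3 was lowest. On each array 4 to 8 of the 10 lay below the array median, and their part in the Foxd3 values was not tested. Of 7 measured primitive streak markers 0 were called by limma in any comparison, 1, 3 and 1 had an unadjusted p under 0.05 in the same order, with summed signals of 341 and 388 in ESC, 715 and 477 in EpiSC-like cells and 714 and 689 at day 7. T was not analysed.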

How the data were processed

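RNA of 3 sorted fractions, 2 arrays each, was measured on 3' expression arrays. The authors deposited 1 linear intensity for each probe set and array. Their processing notes name Affymetrix Expression Console (version 1), and its algorithm was not given in the sources used here. The deposited values show that each array had been scaled to 1 trimmed mean. No detection call or scanner file was used, so depth is not expressed in counts and the number of arrays limits the precision.

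Control probe sets (64) were left out. Annotation gave 1 gene to 34945 of the others. Where a gene had several probe sets, the brightest by mean log2 signal over all arrays stood for it. Values were transformed as log2(signal + 16) and fitted with limma 3.58.1 (R 4.3.3) to 3 group means over 6 arrays, with 3 residual degrees of freedom, moderated with eBayes and adjusted over 18193 genes. The fit was run on simulated arrays with independent noise, no technical sets, and changes placed only in genes at or above the median signal. That run had to recover the size of the placed differences, and set no condition on calls. With 2 arrays against 2, an exact permutation test cannot go below p = 0.333.

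The 6 genes and all lists were chosen with earlier results of these data known. Named genes were the 6, Pou5f1, Pecam1, called list members, uncalled ones as values, and the 3 genes nearest to each of the 6. Promoter windows are from RefSeq (GRCm38.p6), which matched 5 of the 6 genes, without Pou3f1. Other pseudocounts, scalings, filters, probe set rules, eBayes settings, blocks and left-out arrays were tried.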

Additional observations from a re-analysis of the deposited data

How the results depend on the processing

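With 2 arrays per group, 3 residual degrees of freedom and adjustment over 18193 genes, many calls turn on the setting, while directions mostly hold. EpiSC-like against ESC had 345 genes called, day 7 against ESC had 189 and day 7 against EpiSC-like had 7, and of the 6 epiblast regulators 3, 1 and 0. In the same order of comparisons, a pseudocount of 1 gave 0, 0 and 0 genes and 0, 0 and 0 regulators, and one of 64 gave 672, 679 and 206 genes and 3, 2 and 2 regulators. Dropping genes under the 25th percentile gave 672, 567 and 144 genes and 3, 1 and 0 regulators. Dropping those under the median gave 734, 843 and 315 genes and 3, 5 and 3 regulators. These filters used the mean log2 signal over all 6 arrays. Fgf5, Pou3f1 and Sall2 passed the median filter through the groups where they were brighter than in ESC, so the regulators it adds are not separate support. An intensity trend in eBayes gave 794, 791 and 199 genes and 3, 4 and 3 regulators, and robust estimation gave 283, 144 and 0 genes and 3, 1 and 0 regulators. Centring each array on its median gave 332, 174 and 10 genes, and quantile normalization 292, 145 and 0, both with 3, 1 and 0 regulators. Testing all probe sets gave 129, 0 and 0 probe sets, and the mean of all probe sets of a gene 269, 158 and 8 genes, both with 3, 0 and 0 regulators. The 4 arrays of the groups compared alone gave 41, 0 and 0 genes and 3, 0 and 0 regulators. The poly-A control level as a block, chosen after seeing the data, gave 116, 0 and 0 genes and 3, 0 and 0 regulators.

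With the replicate block 0, 0 and 0 genes and 0, 0 and 0 regulators were called, with smallest adjusted p of 0.0506, 0.0665 and 0.124. Deviations of same-numbered arrays correlated with r = 0.283, 0.0785 and 0.0969 for EpiSC-like with ESC, day 7 with ESC and day 7 with EpiSC-like. With the block 3369, 3920 and 3055 genes had an unadjusted limma p under 0.05, against 2904, 3331 and 2564 without it. The SE fell from 0.55 to 0.36 for Pou3f1 and from 0.35 to 0.26 for Sall2, and stayed at 0.33 for Fgf5. The labels state no pairing, so the main fit leaves the replicate number out, and its spread holds any difference between the technical sets. Leaving out 1 array at a time gave 0 to 63 genes and 0 to 3 regulators for EpiSC-like against ESC, 0 to 10 genes and 0 regulators for day 7 against ESC, and 0 genes and 0 regulators for day 7 against EpiSC-like. An arm left with 1 array is assumed to vary like the other groups.

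Each of the 29 calls of list genes was lost in 5 to 16 of up to 19 alternatives, among them 3 to 6 of the 6 left-out arrays, and 0 values of these changed sign. Directions turned for 4 uncalled values. Foxd3 in EpiSC-like cells against ESC was -0.049 with median centring. Tead2 at day 7 against ESC was 0.41 without day 7 replicate 2 and ran from -0.76 to 0.41 over the left-out arrays. Pecam1 at day 7 against ESC was -0.24 without ESC replicate 2, -0.036 without day 7 replicate 1 and -0.26 with the poly-A block, with a range of -0.24 to 0.81 over the left-out arrays. Pou5f1 at day 7 against EpiSC-like cells was 0.30 without EpiSC-like replicate 2, 0.20 without day 7 replicate 1 and 0.34 with the poly-A block, with a range of -0.37 to 0.30 over the left-out arrays. The cause was not tested. Signals under the array median, such as Fgf5 in ESC, have no detection call here, so their level above background is unknown.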

Other observations

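Beside the 6 genes, the 3 genes with the nearest pattern to each were read off by the root mean square difference of mean-centred log2 profiles over the 6 arrays, among 9096 genes at or above the median signal. The measure is a description, and the arrays are shared by all genes. Fgf5 and Pou3f1 were each other's second nearest gene, at 0.54, on profiles that span 4.91 and 5.74 log2 units. Nearest to Fgf5 was Cachd1, at 0.48, with signals of 270 and 158 in ESC, 3371 and 3107 in EpiSC-like cells and 1587 and 1299 at day 7. Nearest to Pou3f1 was Car3, a carbonic anhydrase gene, at 0.48, with 248 and 77.7 in ESC, 2142 and 3330 in EpiSC-like cells and 566 and 385 at day 7. Ndnf came next for both, at 0.60 from Fgf5 and 0.62 from Pou3f1.

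Nearest to Sall2 was Prom1, a membrane glycoprotein gene of neural progenitors, at 0.30. Its signals were 376 and 336 in ESC, 3163 and 3465 in EpiSC-like cells and 1086 and 879 at day 7. It was followed by Selenop and Prtg at 0.39 each. Sall2 itself was the sixth nearest gene to Fgf5 and the fourth nearest to Pou3f1. Seen from Sall2, Fgf5 stood at place 29 and Pou3f1 at place 47. Otx2, which spans 1.16 log2 units, lay at 0.056 from Stx7, 0.065 from Cblb and 0.073 from Ptpra. Foxd3, which spans 1.10, lay at 0.089 from Tmem126a, 0.090 from Wdr46 and 0.093 from Slc20a2. Tead2, which spans 1.64, lay at 0.18 from Bok, 0.18 from Nt5dc2 and 0.21 from Csk. The distances of the narrow profiles are small because the profiles vary little, so they do not compare with those of Fgf5, Pou3f1 and Sall2.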
